A study of Homo sapiens with 34 samples.

Results

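The pre-B-cell receptor and the V(D)J recombination machinery were followed through 9 genes chosen by name: *VPREB1*, *IGLL1* and *VPREB3*, *CD79A* and *CD79B*, *BLNK*, *RAG1* and *RAG2*, and *DNTT*. All 9 were listed in each of the 6 expression tables, among 17587 genes listed in any of them and 13307 listed in all 6. RNA was sequenced from 3 human B-cell acute lymphoblastic leukemia (B-ALL) lines that carry different fusions as labelled. They are NALM-6 with ETV6-PDGFRB, RS4;11 with MLL-AF4, and BV-173 with BCR-ABL. The study asked what loss of *CCND3*, which encodes cyclin D3, does to these cells, and how that differs from blocking the kinases CDK4 and CDK6, its partners, with palbociclib.

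In each line, cells carrying an shRNA against *CCND3* were sorted for the red fluorescent marker of the lentiviral vector 4 days after transduction and set against cells sorted in the same way that carried a scrambled shRNA. Separately, cells kept for 3 days in 1 µM palbociclib were set against cells kept in the solvent DMSO, which were not transduced. The 12 groups hold 34 samples, 3 in each group except BV-173 with DMSO and NALM-6 with *CCND3* shRNA, which hold 2. The deposited values are 1 level per group, scaled by the authors within each pair of groups. Values of single samples, their spread and the sequencing depth were therefore not seen, and no difference was tested. A gene is said to have risen or fallen where the ratio of its 2 group levels was at least 1.5-fold, which is a description of size alone.

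In a developing B cell, RAG1 and RAG2 cut the immunoglobulin heavy chain locus and DNTT adds bases at the joins. A heavy chain that can be made is displayed with a surrogate light chain, built from VPREB1 and the IGLL1 product lambda 5, and with the signalling chains CD79A and CD79B, as the pre-B-cell receptor. The receptor signals through the kinase SYK and the adaptor BLNK, drives a burst of division in which cyclin D3 takes part, and then lets cells leave the cycle and rearrange their light chain genes.

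The target of the shRNA was checked first. The *CCND3* level with scrambled shRNA and with *CCND3* shRNA was 19498 and 4727 in NALM-6, 16178 and 3353 in RS4;11, and 6619 and 2059.6 in BV-173. The knockdown thus left 24.2%, 20.7% and 31.1% of the control level. With palbociclib the *CCND3* level was 78.0%, 81.8% and 76.0% of that in DMSO in the same order of lines, short of a 1.5-fold fall in each.

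The lines carried markers of the B lineage. In parts per 1000000 of the sum of all levels in a group (ppm), *PAX5* lay between 391 and 966 in every group. *MME*, which encodes CD10, depended on the line and reached at least 179 ppm in every group of NALM-6 and BV-173 and no more than 0.344 in RS4;11. *MS4A1* was lowest with DMSO in each line, at 0.233 ppm in NALM-6 (7.97 to 13.8 in its other groups), 0.316 in RS4;11 (0.746 to 12.3) and 10.6 in BV-173 (75.3 to 82.9). The 8 B-lineage markers summed to between 1768 (RS4;11, DMSO) and 4555 (NALM-6, palbociclib) ppm. T cell markers summed to at most 0.995 ppm in any group and erythroid markers to at most 0.0892. The NK cell list was led by *NKG7*, at up to 96.2 ppm in RS4;11, while *KLRD1* did not pass 2.11. The myeloid list was led by *CD33*, *CSF1R* or *ITGAM* and reached 103.1 ppm in BV-173 with palbociclib, with *MPO* at most 3.84. Stem and progenitor markers summed to 1039 ppm in RS4;11 with scrambled shRNA, where *PROM1* led, and to 29.2 in NALM-6 with scrambled shRNA. The plasma cell list was led by *XBP1* in every group, with a highest sum of 1058 in NALM-6 with *CCND3* shRNA.

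Against the control of its own table, palbociclib moved more ratios of the 9 genes past 1.5-fold than knockdown did in NALM-6 and BV-173, and as many in RS4;11. Among all genes, too, larger shares rose and fell with palbociclib than after knockdown in each line, as given below. The comparison depends on the control: over the 3 lines 12 of 27 ratios passed with palbociclib and 6 of 27 after knockdown, but 9 and 15 against the other control of the line and 14 and 10 against the mean of both, alternatives chosen after seeing the data. With those controls the share of all genes was not counted, so their counts are no result about the 9 genes in particular. After knockdown, 0 of 9 rose and 0 of 9 fell in NALM-6, where 7.82% of all genes rose and 8.47% fell. In RS4;11, 2 rose (*CD79B*, *BLNK*) and 2 fell (*IGLL1*, *DNTT*), beside 9.73% and 9.72% of all genes. In BV-173, 0 rose and 2 fell (*RAG1*, *RAG2*), beside 3.32% and 4.78% of all genes. These shares of all genes depend on scaling in BV-173: 41.0% of the genes past 1.5-fold were higher with the levels as deposited and 20.2% once each column was scaled to its sum.

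With palbociclib, 2 of 9 genes rose in NALM-6 (*CD79A*, *RAG2*) and 1 fell (*IGLL1*), beside 21.4% and 14.9% of all genes. In RS4;11, 2 rose (*CD79A*, *VPREB1*) and 2 fell (*VPREB3*, *DNTT*), beside 16.7% and 15.0% of all genes. In BV-173, 1 rose (*CD79A*) and 4 fell (*IGLL1*, *RAG1*, *RAG2*, *DNTT*), beside 13.6% and 11.9% of all genes. In NALM-6 the higher genes made up 58.9% of those past 1.5-fold as deposited and 69.6% after scaling to the column sums. Of the 54 ratios, 18 passed 1.5-fold. These shares were not tested against those of all genes, and what follows describes the genes by their levels.

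**Figure D1:**
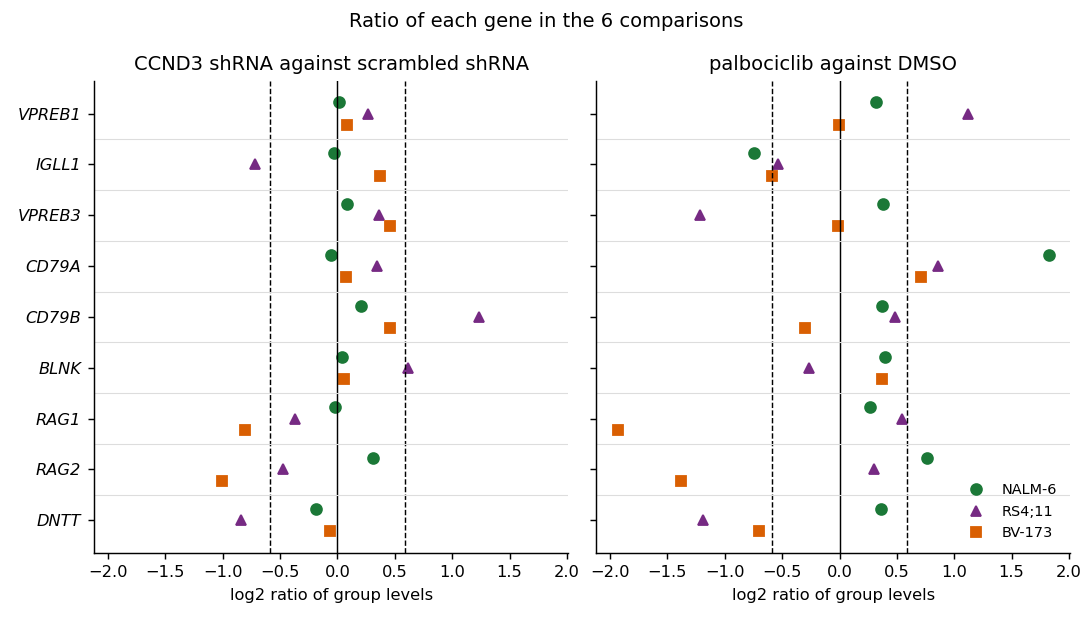
Log2 ratio of the 2 group levels for each of the 9 genes (rows) after *CCND3* knockdown (left) and with palbociclib (right). Each symbol is a cell line, the solid line marks no difference and the dashed lines mark 1.5-fold. *CD79A* lies right of the dashed line in all 3 lines with palbociclib, and *RAG1* and *RAG2* lie left of it in BV-173 under both treatments.

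The surrogate light chain genes lie together on chromosome 22 (GRCh38.p14), *VPREB1* (NCBI gene 7441) at chr22:22244786-22245515, *IGLL1* (gene 3543) at chr22:23573125-23580290 and *VPREB3* (gene 29802) at chr22:23752743-23754425. *IGLL1* and *VPREB3* are 172 kb apart, and *VPREB1* lies 1328 kb from *IGLL1*. VPREB3, unlike the other products, is thought to assist assembly of the receptor inside the cell.

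*IGLL1* gives lambda 5, the constant-like portion of the surrogate light chain. Its level in DMSO and palbociclib was 14317 and 8517 in NALM-6, 13377 and 9207 in RS4;11, and 17068 and 11327 in BV-173. All 3 palbociclib levels were lower than their controls, by a log2 ratio of −0.75, −0.54 and −0.59, so that NALM-6 and BV-173 passed 1.5-fold and RS4;11, at 68.8% of its control, did not. Against the scrambled control, an alternative chosen after seeing the data, neither passed (−0.22 in NALM-6 and −0.58 in BV-173), and against the mean of both controls NALM-6 did not (−0.44). With scrambled and *CCND3* shRNA the level was 10201 and 9994 in NALM-6, 8926 and 5425 in RS4;11, and 16288 and 21121 in BV-173. After knockdown *IGLL1* thus fell in the MLL-AF4 line, to 60.8% of control, and lay within 1.5-fold in the others (log2 ratio −0.03 in NALM-6 and 0.37 in BV-173). These are bulk samples, in which fewer cells of a type and less RNA per cell cannot be told apart. Part of the *IGLL1* sequence is nearly the same as that of *IGLL5* and the lambda constant genes, so reads may have been shared between them in the counting and both levels carry that uncertainty.

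*VPREB1*, the variable-like partner of lambda 5, took another course. Its level rose from 3139 in DMSO to 6830.1 in palbociclib in RS4;11 (log2 ratio 1.12, or 2.18-fold). The same pair of levels was 3074 and 3826 in NALM-6 and 2345 and 2333 in BV-173, a log2 ratio of 0.32 and −0.01. After knockdown all 3 log2 ratios lay between 0.01 and 0.26. In the MLL-AF4 line with palbociclib *VPREB1* was thus at 218% and *IGLL1* at 68.8% of control. Against the scrambled control, chosen after seeing the data, *VPREB1* still passed 1.5-fold (log2 ratio 0.83) and *IGLL1* had −0.02, so the lower *IGLL1* level depended on the control.

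Among the 6 comparisons *VPREB3* fell only in the MLL-AF4 line with palbociclib, from 1188 to 511 (43.0% of control). Knockdown in the same line gave 713 and 917, a log2 ratio of 0.36. In NALM-6 it lay between 5659 and 7441 in the 4 groups, and in BV-173 between 3976 and 7701. The fall depended on the control: its level was 60.1 ppm in DMSO and 37.4 with scrambled shRNA, and against the scrambled control the log2 ratio went from −1.22 to −0.55, short of 1.5-fold. Of the 3 surrogate light chain genes in this line with palbociclib, *VPREB1* alone passed 1.5-fold against both controls.

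Because *VPREB1* passed 1.5-fold there and *IGLL1* did not, the 250 bases before their RefSeq starts are shown (GRCh38.p14, *VPREB1* at chr22:22244536-22244785 on the plus strand and *IGLL1* at chr22:23580291-23580540 on the minus strand). Promoter sequences were at hand for 8 of the 9 genes. Capitals mark matches, on either strand, to an E-box (CANNTG, the letters bound by E proteins such as TCF3), to the core of EBF1 sites (CCCNNGGG), to the octamer (ATTTGCAT) and to a forkhead word (GTAAACA).
VPREB1: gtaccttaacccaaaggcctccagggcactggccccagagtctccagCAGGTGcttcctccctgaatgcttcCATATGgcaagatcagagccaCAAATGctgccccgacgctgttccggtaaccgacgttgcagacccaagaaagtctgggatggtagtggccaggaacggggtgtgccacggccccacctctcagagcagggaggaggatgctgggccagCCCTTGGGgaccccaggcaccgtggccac
IGLL1: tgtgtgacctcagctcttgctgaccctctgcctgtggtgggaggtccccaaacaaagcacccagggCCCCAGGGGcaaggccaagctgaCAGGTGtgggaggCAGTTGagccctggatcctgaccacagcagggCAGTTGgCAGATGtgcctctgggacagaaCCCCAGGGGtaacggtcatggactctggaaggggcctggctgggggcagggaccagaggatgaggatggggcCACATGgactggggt
The *IGLL1* window holds 5 E-boxes, and each of its 2 EBF1 stretches is read as a match at 2 positions that overlap by all but 1 base. The *VPREB1* window holds 3 E-boxes and 1 EBF1 core. Among 27303 RefSeq promoters cut to the same length, 62.2% hold an E-box, 16.6% an EBF1 core, 1.66% an octamer and 2.98% the forkhead word. All 8 windows held at least 1 E-box, 2 held an EBF1 core (*IGLL1* and *VPREB1*), 1 held the octamer (*VPREB3*, 47 to 40 bases before the start) and 0 held the forkhead word. A match describes letters and no more.

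The signalling chains CD79A and CD79B form the pair that carries the signal of the receptor into the cell. *CD79A* (gene 973, chr19:41877279-41881372) was the gene of the 9 that rose with palbociclib in all 3 lines, while 624 of 13788 genes (4.53%) listed in the 3 palbociclib tables did so. Its level in DMSO and palbociclib was 1870.4 and 6621 in NALM-6, 11928 and 21607 in RS4;11, and 6978 and 11402 in BV-173. The rise was 3.54-fold, 1.81-fold and 1.63-fold. With scrambled and *CCND3* shRNA the level was 6295 and 6051 in NALM-6, 15584 and 19796 in RS4;11, and 5198 and 5482 in BV-173, and no pair of these differed by 1.5-fold (log2 ratios −0.06, 0.35 and 0.08).

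The large ratio in NALM-6 goes with a low control. In ppm, a scale on which the separately scaled tables can be set side by side, *CD79A* stood at 96.1 in DMSO, 372 in palbociclib, 344 with scrambled shRNA and 336 with *CCND3* shRNA. The DMSO group was thus the group apart, as it was in this line for the marker *MS4A1*, and palbociclib stood 0.11 (log2) above the scrambled control. In RS4;11 the same setting gave 0.40, and in BV-173 it gave 1.08, past 1.5-fold. Whether the low DMSO value in NALM-6 comes from 1 of its samples was not tested. The promoter of *CD79A* (chr19:41877029-41877278, plus strand, GRCh38.p14) is shown for its rise in all 3 lines and holds 1 E-box of the form CAGGTG, in capitals.
CD79A: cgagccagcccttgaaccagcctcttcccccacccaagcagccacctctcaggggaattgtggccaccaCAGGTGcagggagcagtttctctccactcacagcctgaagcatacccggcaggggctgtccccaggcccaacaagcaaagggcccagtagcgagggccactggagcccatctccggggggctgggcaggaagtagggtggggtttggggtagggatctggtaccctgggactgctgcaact

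*CD79B* (gene 974, chr17:63928740-63932331) encodes the partner. Its level with scrambled and *CCND3* shRNA was 1299 and 3057 in RS4;11, a 2.35-fold rise that 1.74% of all genes in that comparison exceeded. In NALM-6 the levels were 7074 and 8152 and in BV-173 they were 2060.4 and 2824, with log2 ratios of 0.20 and 0.45. With palbociclib no line passed 1.5-fold (log2 ratio −0.30 in BV-173, 0.37 in NALM-6 and 0.48 in RS4;11). Against the scrambled control, chosen after seeing the data, palbociclib gave *CD79A* and *CD79B* log2 ratios of 0.11 and 0.42 in NALM-6, 0.40 and 0.37 in RS4;11, and 1.08 and −0.50 in BV-173, so the contrast of the partners with palbociclib passed 1.5-fold with both controls in BV-173 alone.

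BLNK links SYK to BTK and PLCG2 once the receptor has signalled. *BLNK* (gene 29760, chr10:96189171-96271569) was marked by its level in the lines, and its ratios depended on the control. In DMSO it stood at 228 ppm in NALM-6, 120.4 in BV-173 and 4.56 in RS4;11, where 59.8% of genes had a higher level per length. The 4 RS4;11 groups had deposited levels from 75.1 to 138. After knockdown in that line the level went from 89.9 to 138 (1.53-fold), which was no longer past 1.5-fold with 10 added to both levels or with each column scaled to its sum (log2 ratio 0.56 and 0.58). The other 5 log2 ratios lay between −0.26 and 0.39. Set against the scrambled control, chosen after seeing the data, *BLNK* with palbociclib passed 1.5-fold upward in NALM-6 (327 and 177 ppm) and BV-173 (149 and 66.8). Both also passed it against the mean of both controls. After knockdown in BV-173 the log2 ratio against DMSO was −0.90.

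RAG1 and RAG2 form the recombinase that cuts at recombination signals, and their genes lie 11.2 kb apart, tail to tail, on chromosome 11 (*RAG1*, gene 5896, chr11:36510353-36579762, and *RAG2*, gene 5897, chr11:36590996-36598236). In BV-173 both fell under both treatments. *RAG1* had levels of 3536 in DMSO and 925 in palbociclib, and 2907 with scrambled and 1665 with *CCND3* shRNA. *RAG2* had 1047 and 401 in the first pair and 753 and 375 in the second. Palbociclib thus left 26.2% of *RAG1* and 38.3% of *RAG2*, and knockdown left 57.3% and 49.9%. Of all genes, 0.811% had a log2 ratio at or below that of *RAG1* (−1.93) and 2.48% at or below that of *RAG2* (−1.38) with palbociclib, and after knockdown 1.44% and 0.474%.

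The other lines differed. In NALM-6 the *RAG1* level was 25143 in DMSO and 30303 in palbociclib, and the *RAG2* level 2396 and 4067, so that *RAG2* rose 1.70-fold and *RAG1* had a log2 ratio of 0.27. With scrambled and *CCND3* shRNA NALM-6 had 15269 and 15001 for *RAG1* and 2795 and 3467 for *RAG2*, all within 1.5-fold. In RS4;11 *RAG1* went from 5673 to 8294 with palbociclib (log2 ratio 0.55) and from 3799.5 to 2934 after knockdown (−0.37), and *RAG2* from 1418 to 1746 (0.30) and from 934 to 671 (−0.48). Neither gene passed 1.5-fold there, and both stood above control with palbociclib and below it after knockdown. Both passed 1.5-fold against the other control of that line, chosen after seeing the data, upward with palbociclib and downward after knockdown. In DMSO, palbociclib, scrambled and *CCND3* shRNA, *RAG1* stood at 286.8, 415.8, 199.5 and 150.8 ppm and *RAG2* at 71.7, 87.5, 49.1 and 34.5. Set against DMSO, *RAG2* thus rose with palbociclib in NALM-6 and fell in BV-173, a difference that was not tested. Against the scrambled control the *RAG2* rise in NALM-6 was just short of 1.5-fold (0.58), and its fall in BV-173 passed it (−0.97). In NALM-6 *RAG1* with palbociclib (1701 ppm) passed 1.5-fold against the scrambled control (834) and against the mean of both controls. After knockdown in NALM-6, set against DMSO, *RAG1* passed it downward (832 and 1292 ppm) and *RAG2* upward (192 and 123).

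The windows before the RefSeq starts of the recombinase genes, shown because these genes moved together in BV-173, share little in composition (*RAG1* at chr11:36510103-36510352 on the plus strand and *RAG2* at chr11:36598237-36598486 on the minus strand, GRCh38.p14). The first is at the outermost RefSeq start of *RAG1*, and whether these cells use that start was not tested.
RAG1: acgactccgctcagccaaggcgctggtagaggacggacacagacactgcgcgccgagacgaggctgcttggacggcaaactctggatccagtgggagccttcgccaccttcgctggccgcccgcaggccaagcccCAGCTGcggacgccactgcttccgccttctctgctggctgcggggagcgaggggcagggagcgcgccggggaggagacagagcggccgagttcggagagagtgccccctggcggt
RAG2: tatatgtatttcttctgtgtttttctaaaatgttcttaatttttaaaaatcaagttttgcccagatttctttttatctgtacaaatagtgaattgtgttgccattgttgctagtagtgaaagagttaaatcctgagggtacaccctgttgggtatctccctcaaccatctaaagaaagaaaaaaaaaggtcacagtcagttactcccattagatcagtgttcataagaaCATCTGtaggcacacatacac
The *RAG1* window is 70.0% G and C and the *RAG2* window 34.0%, and each holds 1 E-box, at 115 and at 21 bases before the start.

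DNTT, or terminal transferase, adds bases without a template at the joins of V, D and J segments. *DNTT* (gene 1791, chr10:96304434-96338564) lies 32.9 kb from *BLNK* on chromosome 10, and like *BLNK* it was low in RS4;11, at 10.9 ppm in DMSO against 707 in NALM-6 and 700.4 in BV-173. In the MLL-AF4 line it fell from 215 in DMSO to 94.4 in palbociclib and from 135 with scrambled shRNA to 75.2 with *CCND3* shRNA, a log2 ratio of −1.19 and −0.84. In BV-173 the level fell from 13503 to 8320 with palbociclib (61.6% of control) and was 5459 and 5208 in the shRNA groups. In NALM-6 no difference reached 1.5-fold, with 13765 and 17640 in DMSO and palbociclib and 12522 and 10987 with scrambled and *CCND3* shRNA. In BV-173 the *DNTT* controls stood apart from each other, at 700.4 ppm in DMSO and 282 with scrambled shRNA, and palbociclib (413) lay between them. Against the scrambled control neither *DNTT* fall with palbociclib passed 1.5-fold (log2 ratio −0.58 in RS4;11, and 0.55, of the other sign, in BV-173).

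**Figure D2:**
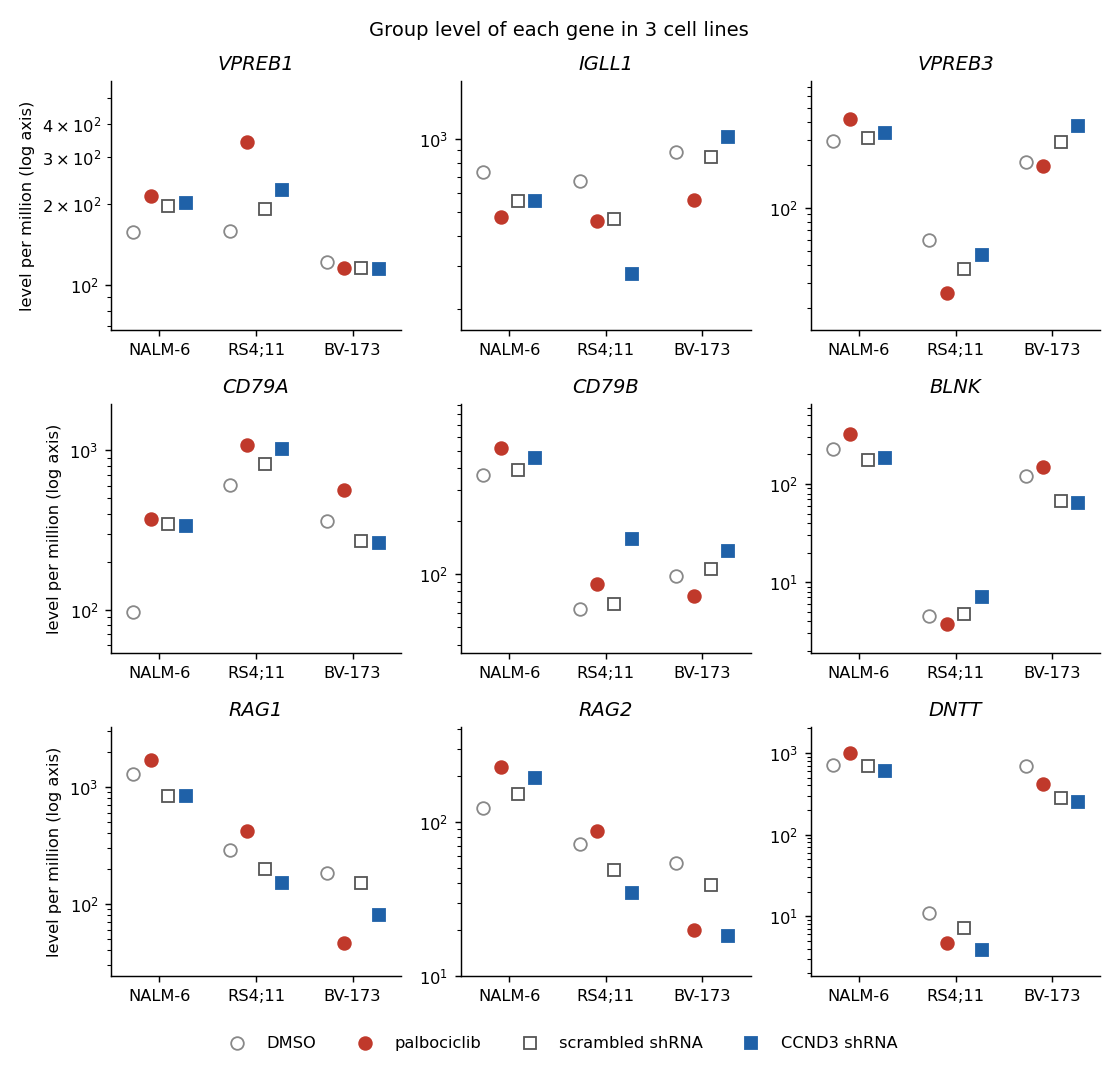
Level in ppm of all levels in a group (log axis) for each of the 9 genes in each line. Circles are DMSO (open) and palbociclib (filled), and squares are scrambled shRNA (open) and *CCND3* shRNA (filled). *BLNK* and *DNTT* are lowest in all 4 RS4;11 groups, and *CD79A* in NALM-6 with DMSO stands apart at 96.1.

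The pair of controls in each line shows how far levels lay from each other without a knockdown or an inhibitor, although these groups also differ in transduction, sorting, day and table. Of the 27 pairs of control levels, 6 differed by at least 1.5-fold on the ppm scale: *CD79A* and *RAG1* in NALM-6, *VPREB3* and *DNTT* in RS4;11, and *BLNK* and *DNTT* in BV-173. Such a gap was present for 26.9% of all genes in NALM-6, against 21% in BV-173 and 18.9% in RS4;11. For 2 of the ratios past 1.5-fold, *CD79A* in NALM-6 and *DNTT* in BV-173 with palbociclib, the gap between the controls was larger than the ratio.

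As an alternative chosen after seeing the data, each treated group was set against the other control of its line. Of the 18 ratios, 10 then still passed 1.5-fold in the same direction, among them all 6 found after knockdown. Of the 12 found with palbociclib, the 4 that did so were *VPREB1* in RS4;11 (log2 ratio 0.83), *CD79A* in BV-173 (1.08), and *RAG1* (−1.71) and *RAG2* (−0.97) in BV-173. The ratio turned its sign for *DNTT* in BV-173, from −0.70 to 0.55. For *IGLL1* with palbociclib it became −0.22 in NALM-6 and −0.58 in BV-173, for *VPREB3* and *DNTT* in the MLL-AF4 line −0.55 and −0.58, and for *RAG2* in NALM-6 0.58, the last 4 just short of 1.5-fold. Against the mean of both controls, also chosen after seeing the data, 16 of the 18 passed, and *IGLL1* in NALM-6 (−0.44) and *DNTT* in BV-173 (−0.25) did not.

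**Figure D3:**
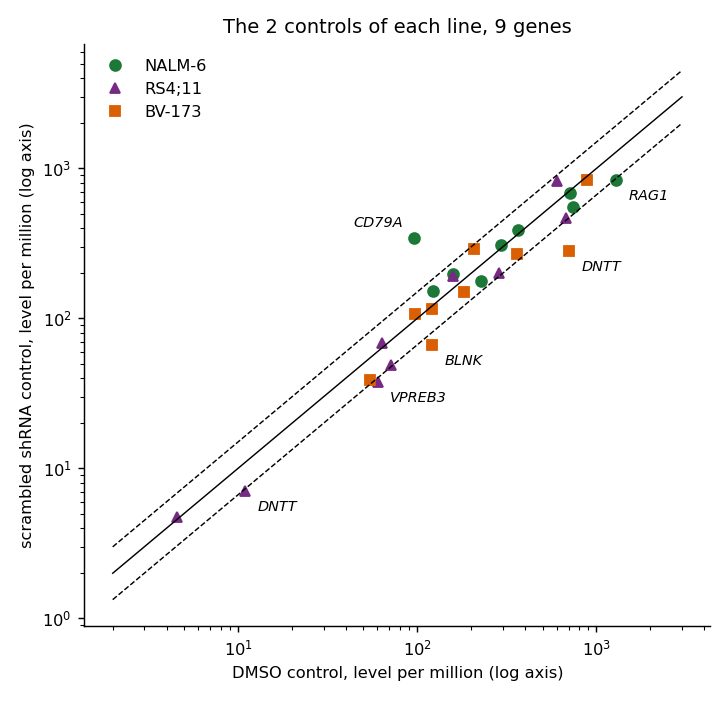
Level in ppm in the DMSO control (horizontal) and in the scrambled shRNA control (vertical) of the same line for the 9 genes, both on log axes. Each point is a gene in a line, the solid line marks equal levels and the dashed lines 1.5-fold. Named genes lie past 1.5-fold, with *CD79A* in NALM-6 farthest above the line and *DNTT* in BV-173 farthest below it.

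Set side by side, knockdown and palbociclib, which have separate controls, gave ratios of like sign for some genes and not for others. *RAG1* and *RAG2* in BV-173 and *DNTT* in RS4;11 fell under both. *VPREB3* in the MLL-AF4 line had log2 ratios of 0.36 and −1.22, and *IGLL1* in BV-173 0.37 and −0.59. *CD79B* in the MLL-AF4 line had 1.23 and 0.48. The largest distance between the treatments was that of *CD79A* in NALM-6, where the knockdown ratio lay 1.88 below that of palbociclib, the comparison with the low DMSO level.

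Ordered by their level in DMSO, NALM-6 was highest for *CD79B*, *VPREB3*, *BLNK*, *RAG1*, *RAG2* and *DNTT*, RS4;11 for *CD79A* and *VPREB1*, and BV-173 for *IGLL1*. The order of the 3 lines was the same with the scrambled control for 7 of the 9 genes. It differed for *CD79A*, where NALM-6 and BV-173 changed places, and for *VPREB1*, where NALM-6 and RS4;11 stood 1.00 to 1.03-fold apart. For *DNTT*, NALM-6 and BV-173 were 1.01-fold apart in DMSO and 2.43-fold apart with scrambled shRNA, so the distance between them depended on the control, while NALM-6 was the higher with both. With columns scaled by their median ratio over genes in all tables, the DMSO order turned for these lines, with BV-173 the higher for *DNTT*, and NALM-6 was above RS4;11 for *VPREB1*. The distances between the highest and the lowest line in DMSO, with those between the same lines with scrambled shRNA in brackets, were 65.0-fold (96.7) for *DNTT*, 50.0-fold (37.6) for *BLNK*, 7.05-fold (5.55) for *RAG1*, 6.27-fold (2.38) for *CD79A*, 5.75-fold (5.66) for *CD79B*, 4.90-fold (8.26) for *VPREB3*, 2.27-fold (3.92) for *RAG2*, 1.31-fold (1.80) for *IGLL1* and 1.30-fold (1.66) for *VPREB1*. The *CD79A* distance in DMSO rests on the low NALM-6 value.

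To compare genes with each other, levels were divided by the gene length given in the same table and given as parts per 1000000 of the sum of these values. On this scale *IGLL1* had the highest level of the 9 genes in DMSO in each line, 2007 in BV-173, 1699 in NALM-6 and 1569 in RS4;11. *VPREB1*, its partner, stood at 388, 512 and 517 in that order. *CD79A* and *CD79B*, whose products pair, were at 162 and 621 in NALM-6, at 608 and 165 in BV-173 and at 1022 and 107 in RS4;11, so *CD79A* was the lower in NALM-6 and the higher in the others. With palbociclib NALM-6 still had more *CD79B* (869) than *CD79A* (621). *RAG1* exceeded *RAG2* in DMSO in all 3 lines, at 413 and 103 in NALM-6, 57.7 and 44.5 in BV-173 and 92.2 and 61.4 in RS4;11. In BV-173 with palbociclib the values were 12.8 and 14.4.

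Genes whose level in ppm over the 12 groups was most like that of a member were sought among 10074 genes with a mean level of at least 100. For *RAG1* they were *CRLF3* (Pearson's r 0.98), *RAG2* (0.97) and *ARCN1* (0.96). For *DNTT* they were *NRBP2*, *ZNF175* and *ZEB1* (0.99 each), and its neighbour *BLNK* had 0.98. For *VPREB1* they were *REEP3* (0.97), *STK38L* (0.95) and *ELOA* (0.94), and for *IGLL1* *EIF4E*, *ECD* (0.93 each) and *RTN4IP1* (0.92). *VPREB1* and *IGLL1* had an r of −0.74 with each other. The 12 points share 3 lines, so a gene that differs between lines scores high: 273 genes had an r over 0.9 with *DNTT* and 135 with *RAG1*.

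Other genes of the pathway were counted in lists, in which 1 gene is from 5.88% to 33.3% of a list apart from the immunoglobulin genes. The lists were counted against the control of the same table alone, and ratios of single genes in them can depend on that control. No list was tested against all genes, of which, in the order NALM-6, RS4;11, BV-173 kept below, 7.82%, 9.73% and 3.32% rose and 8.47%, 9.72% and 4.78% fell after knockdown, and 21.4%, 16.7% and 13.6% rose and 14.9%, 15.0% and 11.9% fell with palbociclib. Among 17 kinases and adaptors downstream of the receptor, 5, 3 and 0 rose after knockdown (29.4%, 17.6% and 0%) and 1, 0 and 0 fell, with median log2 ratios of 0.04, 0.13 and −0.02 (all genes 0.01, 0.01 and −0.01). With palbociclib 8, 4 and 3 rose (47.1%, 23.5% and 17.6%) and 0, 0 and 2 fell (medians 0.20, 0.31 and 0.16, all genes 0.06, 0.01 and 0.04). *SYK* rose in NALM-6 (1.01) and BV-173 (0.78). Against the scrambled control the NALM-6 rise was short of 1.5-fold (430 and 303 ppm), while that in BV-173 passed it (5.66 and 2.71). The *SYK* level in DMSO was 195 and 198 ppm in NALM-6 and RS4;11 but 3.44 in BV-173. The MLL-AF4 line thus had little *BLNK* and BV-173 little *SYK*, while NALM-6 had both. *BTK* rose after knockdown in NALM-6 (0.95) and RS4;11 (0.82) and with palbociclib in NALM-6 (0.81), and *LYN* passed 1.5-fold in no comparison (log2 ratios from −0.12 to 0.24).

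Of 7 inhibitors of the signal, 3, 3 and 1 rose after knockdown (42.9%, 42.9% and 14.3%) and 4, 5 and 3 with palbociclib (57.1%, 71.4% and 42.9%), and 1, 0, 0 and 1, 1, 0 fell (medians 0.48, 0.24, −0.24 and 0.63, 0.69, 0.28). *CD72* rose with palbociclib in every line (1.62, 1.08 and 0.95), at 6.01 ppm in BV-173 DMSO cells, and after knockdown in NALM-6 (0.81) and RS4;11 (0.83). Of the list of 10 immunoglobulin and light-chain-like genes, *IGLL5* and *JCHAIN* were analysed here. *IGLL5* stood at 738 ppm in NALM-6, 215 in BV-173 and 5.82 in RS4;11 in DMSO, and in the last it rose after knockdown (log2 ratio 2.33), while its near copy *IGLL1* fell there (−0.72). *JCHAIN*, which joins secreted antibodies, stood at 2393 ppm in BV-173 and under 1 in the other lines in DMSO, and rose under both treatments in NALM-6 (1.75 after knockdown and 3.27 with palbociclib) and RS4;11 (3.26 and 2.99).

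Of 14 factors that work beside RAG or join the ends, 3, 5 and 2 fell after knockdown (21.4%, 35.7% and 14.3%, all genes 8.47%, 9.72% and 4.78%) and 5, 6 and 4 with palbociclib (35.7%, 42.9% and 28.6%, all genes 14.9%, 15.0% and 11.9%), while 1, 1, 0 and 3, 1, 1 rose (medians −0.25, −0.19, −0.22 and −0.44, −0.26, −0.33). *HMGB2*, which bends DNA at the signals for RAG, fell in all 6 comparisons, by a log2 ratio of −1.55, −1.87 and −0.75 after knockdown and −3.66, −4.44 and −2.49 with palbociclib. *HMGB1* fell with palbociclib in every line (−1.77, −1.80 and −1.21), as did *XRCC4*, the partner of ligase IV (−0.85, −1.07 and −0.59). No *XRCC4* fall with palbociclib passed 1.5-fold against the scrambled control (13.6 and 19.3 ppm, 10.1 and 14.6, and 15.9 and 22.3), while each *HMGB1* fall did. After knockdown *HMGB1* had −1.35, −1.27 and −0.58, the last just short of 1.5-fold, and *XRCC4* −0.39, −0.59 and −0.29. *LIG4*, the ligase itself, rose with palbociclib in every line (1.04, 1.07 and 0.64) and after knockdown in NALM-6 (0.88). So *HMGB2* fell in NALM-6 with palbociclib where *RAG2* rose, and in BV-173 where both *RAG* genes fell.

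Genes of cycling cells were lower in the same comparisons. All 10 cycling genes fell with palbociclib in each line (medians −2.95, −4.26 and −1.67), and after knockdown 10, 10 and 5 fell (−1.30, −1.73 and −0.56). *MKI67* had log2 ratios of −2.93, −7.16 and −2.55 with palbociclib and −1.52, −2.02 and −0.93 after knockdown. The fall of *RAG1* and *RAG2* was thus seen in BV-173, the line with the smallest fall of the cycling list under either treatment. Whether a part of any change in the 9 genes follows the share of cycling cells was not tested.

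Of 16 transcription factors of early B cells, 1, 4 and 3 rose (6.25%, 25.0% and 18.8%) and 4, 0 and 2 fell after knockdown, and 3, 5 and 4 rose (18.8%, 31.3% and 25.0%, all genes 21.4%, 16.7% and 13.6%) and 0, 0 and 4 fell with palbociclib (medians −0.11, 0.12, −0.29 and 0.17, 0.20, −0.34). In BV-173 with palbociclib, where *RAG1*, *RAG2* and *DNTT* fell, *FOXO1*, an activator of the *RAG* genes, fell (−0.90), as did *EBF1* (−0.70), *PAX5* (−0.59) and *MYB* (−0.99, named after its values were seen), while *TCF3* had −0.55, *IKZF1* 0.28 and *SPI1* 0.75. Against the scrambled control *FOXO1* (41.5 and 86.5 ppm) and *EBF1* (156 and 249) still passed 1.5-fold. The falls of *PAX5* (391 and 536) and *MYB* (290 and 380) did not, nor did the *SPI1* rise (122 and 96.6). After knockdown in BV-173, where *RAG1* and *RAG2* also fell, *FOXO1* had −0.09, *EBF1* −0.21, *PAX5* −0.32, *IKZF1* −0.78, *MYB* −0.81 and *SPI1* 0.75. In the MLL-AF4 line *FOXO1* stood at 16.4 ppm in DMSO, against 252 in NALM-6 and 80.6 in BV-173, and rose after knockdown (0.81). *IRF8* rose with palbociclib in every line (0.89, 0.85 and 2.58) and after knockdown in RS4;11 (0.93) and BV-173 (0.88). Its NALM-6 rise with palbociclib was absent against the scrambled control (7.25 and 7.91 ppm). RS4;11 (73.4 and 46.6) and BV-173 (33.5 and 13.1) still passed 1.5-fold. The part of these factors in the levels of the 9 genes was not tested.

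Of the inhibitors of E proteins, which number 4 and of which 3 or 4 were listed per table, 1, 0 and 0 rose and 1, 1 and 0 fell after knockdown, and 3, 1 and 0 rose and 1, 0 and 0 fell with palbociclib (medians 0.28, −0.49, −0.14 and 0.78, 0.58, −0.12). *ID2* had log2 ratios of 0.92, 0.58 and 0.57 with palbociclib, and *ID3* 0.70, 0.76 and −0.12. The *ID2* direction depended on the control. In every line *ID2* with palbociclib lay more than 1.5-fold below scrambled shRNA (16.0 and 29.4 ppm, 7.47 and 17.5, and 23.3 and 42.6). Neither *ID3* rise with palbociclib passed 1.5-fold against scrambled shRNA (178 and 131 ppm in NALM-6, 108 and 74.1 in RS4;11). Of 9 genes of the IL-7 receptor pathway, which holds back light chain rearrangement in pre-B cells, 1, 0 and 1 rose (11.1%, 0% and 11.1%) and 1, 0 and 0 fell after knockdown, and 2, 3 and 2 rose (22.2%, 33.3% and 22.2%, all genes 21.4%, 16.7% and 13.6%) and 0, 1 and 1 fell with palbociclib (medians 0.37, 0.11, −0.11 and 0.16, 0.09, 0.05). *IL7R* fell in NALM-6 after knockdown (−0.86) and in BV-173 with palbociclib (−1.45), the comparison in which *RAG1* fell most. The NALM-6 fall depended on the control, since the knockdown level (248 ppm) lay below scrambled shRNA (441) and above DMSO (196). In BV-173 the palbociclib level (47.9 ppm) lay more than 1.5-fold below both DMSO (136) and scrambled shRNA (192).

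**Figure D4:**
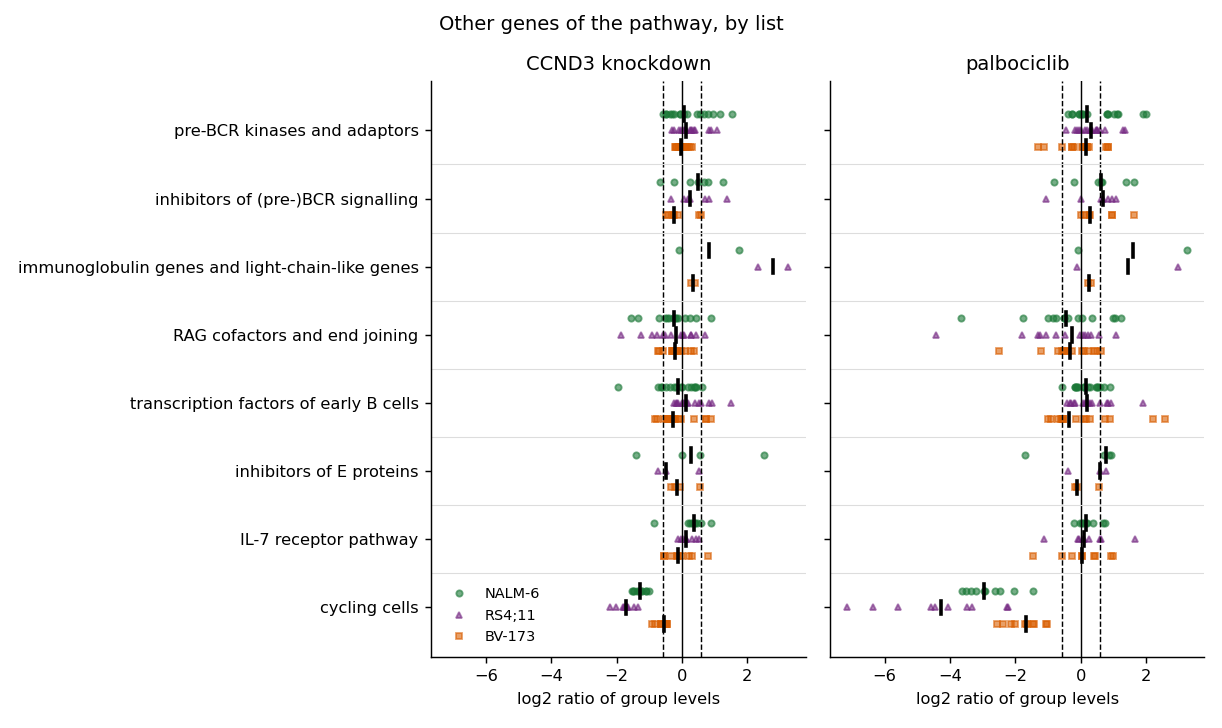
Log2 ratio of the 2 group levels for the genes of each list (rows) after *CCND3* knockdown (left) and with palbociclib (right). Each small symbol is a gene in a line, black ticks are the medians of a list in a line and dashed lines mark 1.5-fold. The cycling genes lie left of the dashed line in all 3 lines with palbociclib, and the other lists spread to both sides.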

How the data were processed

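RNA-seq of 34 samples in 12 groups was read from 6 tables, grouped by line and treatment as labelled. The authors used SOAPnuke to filter reads, Bowtie2 to map them to hg38, RSEM for levels and DESeq2 for the comparisons (versions not given in the sources used here). The authors' deposited signal is 1 level per group, scaled within each table, beside the gene length. The tables also hold the authors' fold changes, p-values and calls, which were not used. The 9 genes were taken by symbol.

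Log2 ratios were taken without a pseudocount or filter. No test was run, since the levels are 1 per group. Levels across tables were divided by the sum of their column, and positions and promoters come from RefSeq (GRCh38.p14), matched on gene ID. The members and the lists were chosen with earlier results of these data known. Named were the 9 genes, *CCND3*, up to 4 genes per list and treatment past 1.5-fold in the same direction in all 3 lines, a fixed set of regulators, and the 3 genes most like *RAG1*, *VPREB1*, *IGLL1* and *DNTT*. Outside that rule, *IGLL5*, *JCHAIN*, *MYB* and the markers were named after their values were seen. A gene that the rule would name is not reported here. Alternatives were a fold limit of 2, a pseudocount of 1 or 10, centring, scaling to the column sum, minimum levels of 10 and 100, another scaling and control for the order of lines, and, added after seeing the data, other controls for the ratios. Python 3.11.15, numpy 2.4.6, pandas 2.3.3 and matplotlib 3.10.9 were used. The arithmetic of the ratio with its limit, of the ppm scale and of the likeness ranking was tried on simulated data, and the other steps were not.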

Additional observations from a re-analysis of the deposited data

Results flagged for a closer look

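*RAG2* moved past 1.5-fold in opposite directions in 2 lines under the same treatment. With palbociclib its log2 ratio was 0.76 in NALM-6 (2396 in DMSO and 4067 in palbociclib) and −1.38 in BV-173 (1047 and 401), a distance of 2.15, and it was 0.30 in RS4;11. The difference between the lines was not tested, since each group has 1 deposited value. Against the scrambled control the ratios were 0.58 in NALM-6, short of 1.5-fold, and −0.97 in BV-173. In RS4;11 *RAG2* then passed 1.5-fold upward, at 87.5 ppm with palbociclib and 49.1 with scrambled shRNA. Which line rose past 1.5-fold thus depended on the control.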

How the results depend on the processing

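No paired analysis was possible because each group has 1 deposited value, and for the same reason no replicate could be left out. What depth limits could not be judged from these levels. A minimum level cannot change the ratio of a gene. Under the alternatives set at the start that can (pseudocounts, centring and scaling), 214 of 216 log2 ratios of the 9 genes kept their side of 1.5-fold, and the 2 exceptions were *BLNK* after knockdown in RS4;11, given above. The sign turned for 4 of the 216, each within 1.5-fold before and after: *CD79A*, *VPREB1* and *BLNK* after knockdown in BV-173 with scaling to the column sum, and *VPREB1* after knockdown in NALM-6 with centring. How many of the 9 genes were counted depended on the limit. The share of all genes was not counted at a fold limit of 2 or with a pseudocount. At a fold limit of 2, which by its construction takes fewer genes, 1 rose and 0 fell after knockdown in RS4;11 (2 and 2 at 1.5-fold) and 1 fell in BV-173 (2). With palbociclib 1 rose and 0 fell in NALM-6 (2 and 1), 1 rose in RS4;11 (2), and 0 rose and 2 fell in BV-173 (1 and 4). A pseudocount of 10 and scaling to the column sum each left 1 rise in RS4;11 after knockdown (2). Scaling to the column sum also moved the median log2 ratio of all genes to −0.11 after knockdown in BV-173 and to 0.19 with palbociclib in NALM-6.

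Against the other control of the line, an alternative chosen after seeing the data, 2 rose and 1 fell after knockdown in NALM-6 (0 and 0), 3 rose and 4 fell in RS4;11 (2 and 2), and 1 rose and 4 fell in BV-173 (0 and 2). The share of all genes past 1.5-fold was not counted with these added controls. The counts here are thus no result about the 9 genes in particular. With palbociclib 0 fell in NALM-6 (1), 3 rose and 0 fell in RS4;11 (2 and 2), and 2 rose and 2 fell in BV-173 (1 and 4). In NALM-6 2 rose as before, but they were *BLNK* and *RAG1* in place of *CD79A* and *RAG2*. The other gains with palbociclib were *RAG1* and *RAG2* in RS4;11 and *BLNK* in BV-173. Against the mean of both controls, chosen at the same time, 1 rose after knockdown in NALM-6 (0), 4 fell in RS4;11 (2) and 3 in BV-173 (2), and with palbociclib 4 rose and 0 fell in NALM-6 (2 and 1), 3 rose in RS4;11 (2), and 2 rose and 3 fell in BV-173 (1 and 4). Over these added controls the sign turned for 13 of 108 ratios. Of them 4 were past 1.5-fold before or after, for *CD79A* after knockdown in NALM-6 (−0.06, then 1.80 against DMSO and 0.61 against the mean), for *BLNK* after knockdown in BV-173 (0.06, then −0.90) and for *DNTT* with palbociclib in BV-173 (−0.70, then 0.55). The other 9 were within 1.5-fold, all after knockdown, among them *VPREB3* in RS4;11 (0.36, then −0.35 against DMSO) and *CD79A* in BV-173 (0.08, then −0.45). The cause was not tested.

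The lists were counted as gene and line pairs over the 3 lines. Shares of all genes were not counted at a fold limit of 2, with a pseudocount or with a minimum level, so those counts stand alone. At a fold limit of 2, after knockdown 3 pairs of kinases and adaptors rose and 0 fell (8 and 1 at 1.5-fold), 2 pairs of signal inhibitors rose and 0 fell (7 and 1), 0 pairs of RAG cofactors and end joining rose and 4 fell (2 and 10), 1 pair of transcription factors rose and 1 fell (8 and 6), 1 pair of E protein inhibitors fell (2), and 0 pairs of the IL-7 receptor pathway rose and 0 fell (2 and 1). With palbociclib, in the same order of lists, 7 rose (15), 4 rose and 1 fell (12 and 2), 3 rose and 9 fell (5 and 15), 3 rose and 0 fell (12 and 4), 0 rose (4), and 1 rose (7).

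Changes of these counts by no more than 1.5 times are not listed. The fall among kinases and adaptors after knockdown went from 1 to 0 with a pseudocount of 1 or 10, with scaling to the column sum and with a minimum level of 100. With palbociclib, falls among signal inhibitors went from 2 to 1 with a pseudocount of 10 and with a minimum of 10 or 100, and falls in the IL-7 receptor pathway from 2 to 1 with a pseudocount of 1 or 10 and a minimum of 10 or 100. Falls of transcription factors with palbociclib went from 4 to 7 with centring and to 8 with scaling to the column sum, which also took falls of the IL-7 receptor pathway after knockdown from 1 to 3. Falls of E protein inhibitors after knockdown went from 2 to 1 with a pseudocount of 10 or a minimum of 10 and to 0 with a minimum of 100, and those with palbociclib from 1 to 0 with a minimum of 100. That minimum left 1 rise of the immunoglobulin list after knockdown (3) and 0 with palbociclib (2). With the scrambled control, the log2 distance between lines became larger than 1.5-fold for *IGLL1* (0.84, BV-173 over RS4;11) and for *VPREB1* (0.73, RS4;11 over BV-173).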
